A study of Rattus norvegicus with 6 samples.

Results

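The diacylglycerol kinases were examined in myocardium as the 9 family members Dgka, Dgkb, Dgkd, Dgke, Dgkg, Dgkh, Dgki, Dgkq and Dgkz, taken by gene symbol from the 32883 genes of the deposited table. A member outside these, Dgkk, was also in the table, with 0, 0 and 1 reads in the OP hearts and 0, 1 and 2 reads in the OR hearts. The hearts came from 3 obesity-prone (OP) rats kept on a high-fat diet and 3 obesity-resistant (OR) rats kept on standard chow, both for 12 months and both on a Sprague Dawley background, with 1 library per rat. The study set these groups against each other as a diet-induced metabolic syndrome and its lean counterpart. It proposes that by 12 months the OP rats had developed heart failure with preserved ejection fraction, and it reports left ventricular hypertrophy and fibrosis in them. Each group held 1 line on 1 diet, so line and diet cannot be told apart, and no group of either line on the other diet was analysed here.

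Diacylglycerol kinases phosphorylate diacylglycerol, the lipid messenger that phospholipase C releases at the membrane, to phosphatidic acid. They thereby end signals that diacylglycerol sends through protein kinases C and D and other effectors, and they open the phosphatidic acid branch that leads back to phosphatidylinositol. In heart muscle this step lies downstream of Gq-coupled receptors for catecholamines, angiotensin and endothelin. The mammalian enzymes are grouped by their domains into calcium-binding type I (Dgka, Dgkb, Dgkg), type II with a pleckstrin homology domain (Dgkd, Dgkh, Dgkk), type III (Dgke), type IV with ankyrin repeats (Dgkz, Dgki) and type V (Dgkq).

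Expression is given in counts per 1000000 reads assigned to genes (CPM), and the whole reads behind each value were recovered from the table. The libraries held 11053922 to 12831578 reads in OP hearts and 10838184 to 11873564 reads in OR hearts, so that 1 read stood for 0.0779 to 0.0923 CPM. Replicate 2 of the OP group stood apart, with a Pearson correlation of 0.977 and 0.979 with the other OP libraries, against 0.988 between those and 0.990 between OR libraries. The 5 cardiomyocyte markers summed to 27250 to 29433 CPM in OP hearts and 27394 to 30335 CPM in OR hearts. Groups were compared with limma over the 13445 genes that had at least 1 CPM in at least 3 libraries, and those with an adjusted p under 0.05 were called. In bulk tissue, fewer cells of a type and less RNA per cell cannot be told apart.

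Expression of 8 of the 9 kinases could be tested, and 4 of them were called. Dgkg and Dgkb, both type I, were higher in OP hearts, by 3.6-fold and 1.94-fold. In OP hearts Dgkz (type IV) fell by 28.5% and Dgkd (type II) fell by 24.1%. Dgka, Dgke, Dgkq and Dgkh were not called, and Dgki had too few reads to be tested. Over all genes tested, 3.37% were called, 1.47% as higher and 1.90% as lower in OP hearts. The median log2 fold change was -0.29 over the 8 kinases tested, against 0.00 over all genes tested. Dgkg passed the filter through its level in OP hearts, since 1 OR library alone reached 1 CPM. With no filter, the median was -0.26 over the 9 kinases.

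**Figure D1:**
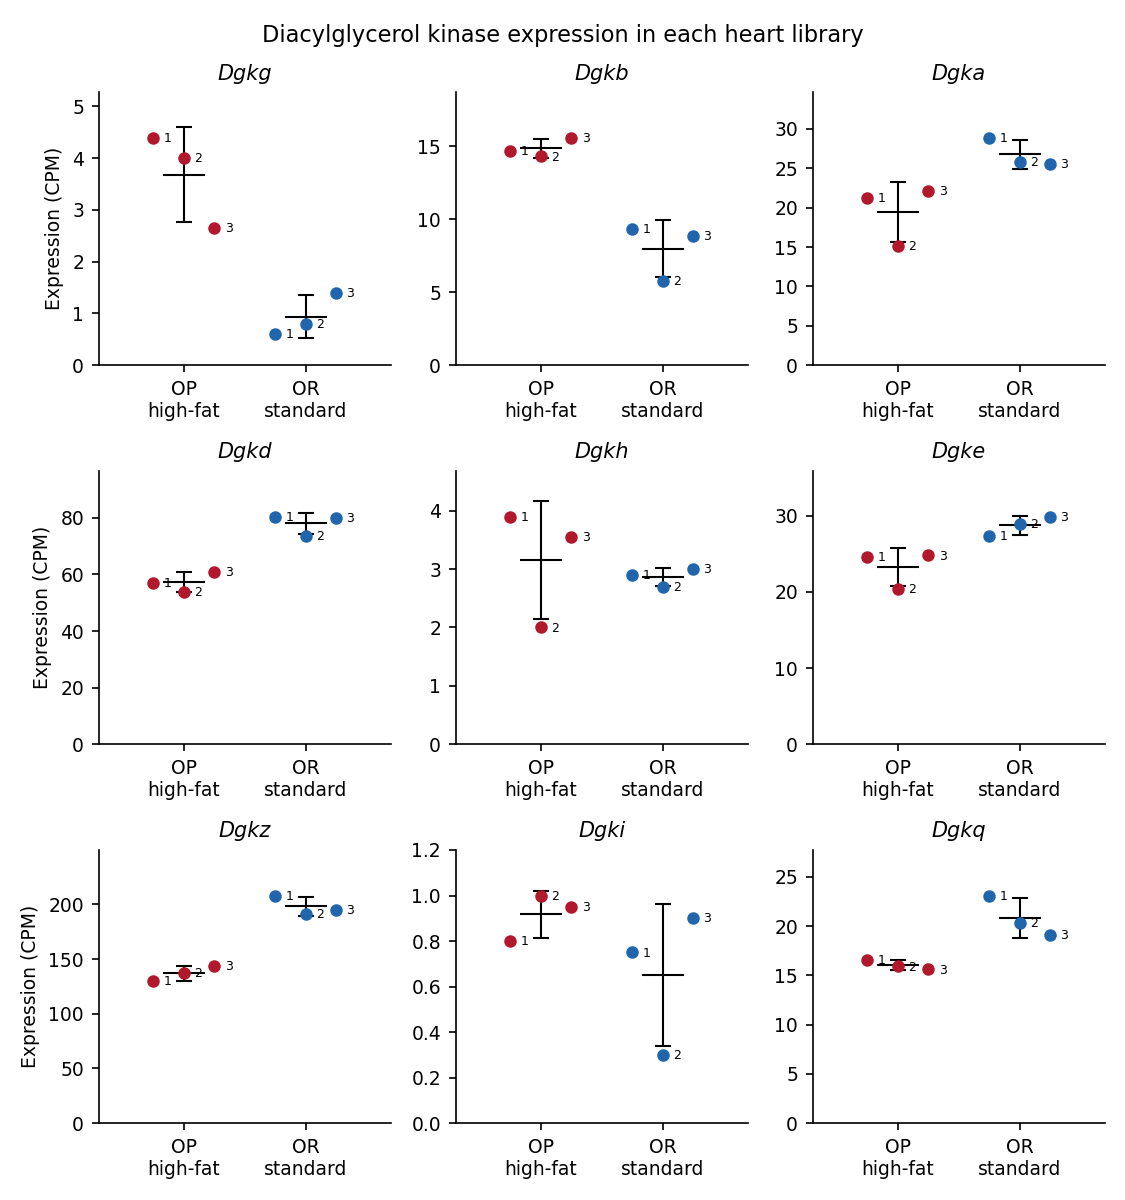
Expression in CPM (linear axes from 0) of the 9 diacylglycerol kinases, with OP high-fat hearts in red on the left and OR standard hearts in blue on the right. Points are single rats with their replicate numbers, and bars show the mean and SD (n = 3 each). The OP points lie above the OR points for Dgkg and Dgkb, below them for Dgkz, Dgkd, Dgka, Dgke and Dgkq, and among them for Dgkh and Dgki.

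The 4 called genes differ in the sequence around their start sites, which is printed here for the kinases that were higher and lower in OP hearts. Each stretch runs from 250 bases before to 50 bases after a RefSeq start in the GRCr8 build, 5′ to 3′ on the gene's strand. Capitals mark matches, on either strand, to GGGCGG (the GC box) or CCGGAAG (an Ets site).
Dgkg promoter, chr11:91888786-91889085, plus strand: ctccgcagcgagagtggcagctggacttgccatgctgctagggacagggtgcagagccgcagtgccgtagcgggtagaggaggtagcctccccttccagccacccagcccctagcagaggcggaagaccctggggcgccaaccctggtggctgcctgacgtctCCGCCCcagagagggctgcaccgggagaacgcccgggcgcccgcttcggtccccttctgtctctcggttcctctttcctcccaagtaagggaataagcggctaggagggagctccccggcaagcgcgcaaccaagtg
Dgkb promoter, chr6:60368338-60368637, plus strand: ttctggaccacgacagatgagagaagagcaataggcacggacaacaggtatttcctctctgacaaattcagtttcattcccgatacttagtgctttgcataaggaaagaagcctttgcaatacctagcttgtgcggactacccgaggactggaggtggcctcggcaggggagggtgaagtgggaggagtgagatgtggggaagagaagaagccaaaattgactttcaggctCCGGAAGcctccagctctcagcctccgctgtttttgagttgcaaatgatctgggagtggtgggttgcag
Dgkz promoter upstream, chr3:98391761-98392060, minus strand: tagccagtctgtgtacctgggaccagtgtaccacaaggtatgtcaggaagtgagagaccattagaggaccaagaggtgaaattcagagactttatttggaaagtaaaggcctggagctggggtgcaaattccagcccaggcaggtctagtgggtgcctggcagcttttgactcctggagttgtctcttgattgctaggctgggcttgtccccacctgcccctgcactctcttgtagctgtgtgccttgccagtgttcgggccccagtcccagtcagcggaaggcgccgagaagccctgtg
Dgkz promoter downstream, chr3:98389653-98389952, minus strand: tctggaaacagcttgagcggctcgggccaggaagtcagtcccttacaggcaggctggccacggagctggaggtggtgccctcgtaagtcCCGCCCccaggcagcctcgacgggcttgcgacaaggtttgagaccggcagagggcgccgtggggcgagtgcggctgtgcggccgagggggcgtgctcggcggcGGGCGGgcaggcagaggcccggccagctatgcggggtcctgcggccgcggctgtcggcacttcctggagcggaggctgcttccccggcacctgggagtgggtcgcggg
Dgkd promoter, chr9:95964257-95964556, plus strand: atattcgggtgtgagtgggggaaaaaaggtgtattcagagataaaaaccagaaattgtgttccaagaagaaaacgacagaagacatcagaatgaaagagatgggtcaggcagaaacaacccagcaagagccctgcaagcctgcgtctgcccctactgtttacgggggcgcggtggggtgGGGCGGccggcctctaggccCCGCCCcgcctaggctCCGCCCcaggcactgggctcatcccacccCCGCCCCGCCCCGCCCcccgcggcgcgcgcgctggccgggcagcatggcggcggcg
The Dgkd stretch held 24 CpG dinucleotides and 6 GC boxes. The downstream Dgkz stretch held 30 CpG and 2 GC boxes, and the upstream one held 4 CpG and none of the searched motifs. The Dgkg stretch held 20 CpG and 1 GC box, and the Dgkb stretch 8 CpG, no GC box and 1 Ets site. Over the 33469 promoters of this length in the RefSeq table, 33.1% held a GC box, 8.75% held the Ets letters, and the median was 7 CpG. The TATA box TATAAA, present in 14.2% of promoters, and the E-box CACGTG, present in 6.42%, had no match in these 5 stretches. Nor did the nuclear receptor site AGGTCA, present in 16.2%, or the cyclic AMP element TGACGTCA, present in 1.83%. All 9 kinases had an entry. Among those not printed, a TATA box was present for Dgke, and an E-box for Dgkh and for Dgkq, where it overlapped a GC box. GC boxes numbered 6 for Dgke, as many as for Dgkd, 4 for Dgkh, 2 for Dgkq and 0 for Dgka and Dgki.

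Among the type I kinases, which calcium activates, Dgkg was called higher. It encodes the gamma isoform, known mainly from brain. Dgkg had 4.4, 4.0 and 2.65 CPM in OP hearts, against 0.6, 0.8 and 1.4 CPM in OR hearts. These rest on 51, 44 and 34 reads in OP hearts and 6, 9 and 16 reads in OR hearts, with exact Poisson 95% intervals, covering counting error only, of 23.5 to 47.5 reads for the lowest OP library and 9.15 to 26 reads for the highest OR library. The groups did not overlap, although these intervals did. OP replicate 3 was the lowest of its group and OR replicate 3 the highest of its own. The log2 fold change was 1.85 (SE 0.32, 95% interval 1.10 to 2.60, adjusted p = 0.0264 by limma), the 27th highest of all genes tested. The adjusted p was 0.0823 without OP replicate 1, 0.105 without OR replicate 1 and 0.106 without OR replicate 2, so the call was lost without any of these. Without OP replicate 2 it was 0.0323. With at least 10 reads required in every library, Dgkg could not be tested. The study singled out Dgkg from these same libraries, so its direction here is not independent evidence.

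Schwann cell markers, like Dgkg, had higher levels in OP hearts. The 3 reported here, Sox10, Cdh19 and S100b, summed to 29.3, 31.4 and 18.5 CPM in OP hearts, against 11.1, 13.1 and 10.9 CPM in OR hearts, with OP replicate 3 again the lowest of its group. Among OR hearts, replicate 3 had the most Dgkg, and its marker sum was close to that of OR replicate 1. Of the OR hearts it had the most Cdh19 and the least Sox10 and S100b. Each of the 3 was above the OR range in every OP heart, as were 10.4% of all genes tested. Of the 3, 1 was called, against 1.47% of all genes tested called higher. Sox10, the lineage's transcription factor, had 10.3, 11.1 and 6.9 CPM in OP hearts and 2.7, 4.5 and 2.55 CPM in OR hearts (log2 fold change 1.54, adjusted p = 0.0259 by limma). Its adjusted p was 0.0799 without OP replicate 1, 0.111 without OR replicate 1 and 0.124 without OR replicate 3. Cdh19, a cadherin of the lineage, had 13.9, 12.8 and 7.05 CPM in OP hearts and 4.55, 4.55 and 5.35 CPM in OR hearts, and was not called (log2 fold change 1.18, adjusted p = 0.0505 by limma). The part of Schwann cells in the Dgkg result was not tested.

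**Figure D2:**
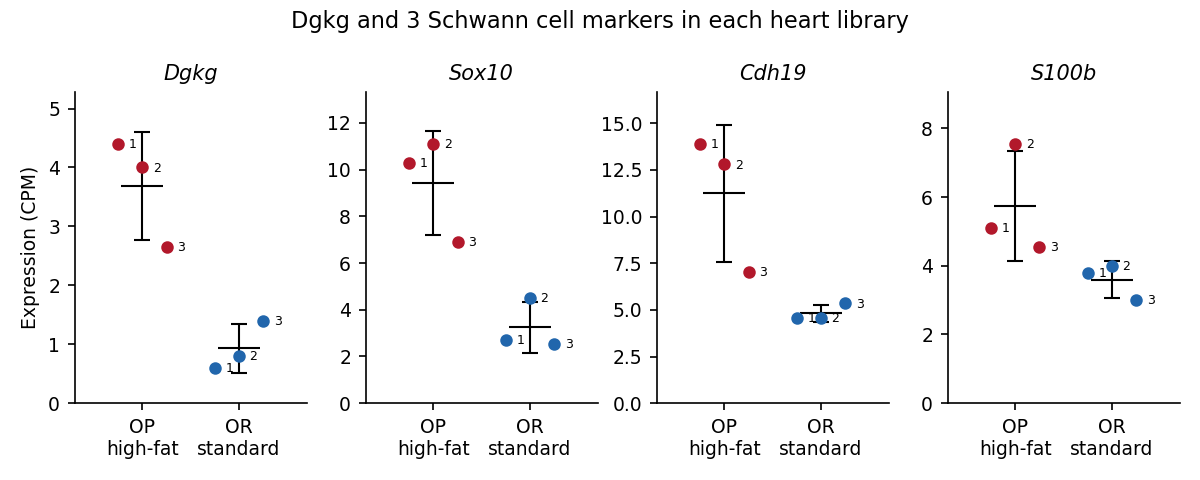
Expression in CPM (linear axes from 0) of Dgkg and the Schwann cell markers Sox10, Cdh19 and S100b, with OP high-fat hearts in red on the left and OR standard hearts in blue on the right. Points are single rats with their replicate numbers, and bars show the mean and SD (n = 3 each). In all 4 panels each OP heart lies above each OR heart, and OP replicate 3 is the lowest OP heart.

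Dgkg is known mainly from brain, and the levels of neuron markers, like that of Dgkg itself, were low in these hearts. The 5 neuron markers summed to 5.25, 14.7 and 7.2 CPM in OP hearts and 5.05, 7.05 and 4.7 CPM in OR hearts. The 2 that reached the filter had log2 fold changes of 0.31 and 0.95, and neither was called. The part of neurons in the Dgkg result was not tested. The mast cell list summed to 40.9, 28.0 and 48.5 CPM in OP hearts and 34.1, 29.6 and 29.6 CPM in OR hearts, so its groups overlapped. Its tryptase gene Tpsb2 was called higher (log2 fold change 1.96, adjusted p = 0.0117 by limma), with an adjusted p of 0.05 to 0.0588 when any OR library was left out. The other members of the list were not called and differed in direction. The proteases Cpa3 (log2 fold change 0.84) and Cma1 (1.09) were above the OR range in every OP heart. The receptor gene Kit, which gives much of the sum, was below it, with 15.4, 10.9 and 18.1 CPM in OP hearts and 22.6, 21.1 and 21.5 CPM in OR hearts (log2 fold change -0.53). The pericyte list summed to 795, 669 and 739 CPM in OP hearts and 636, 664 and 676 CPM in OR hearts. Its channel gene Kcnj8 was called higher (log2 fold change 0.75, adjusted p = 0.0203 by limma), and leaving out any library other than OP replicate 2 gave an adjusted p of 0.0506 to 0.0999. Of the 15 marker lists, the Schwann, mast cell and pericyte lists were the 3 with a called member, and the part of these cells in the kinase results was not tested.

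The genes most like Dgkg over the 6 libraries, by the Pearson correlation of log2 values, were Xylt2, Sem1 and Nhej1 (r = 0.992 each) and Ptprz1 and Tfpi2 (r = 0.991 each). In all 5 of them every OP heart was above every OR heart, and none was called. This separation follows from picking genes by their likeness to Dgkg, whose groups did not overlap, so it is no further evidence. A gene picked in this way shares the group difference of its kinase, here and for the kinases below. The differences of these genes were smaller than that of Dgkg, with log2 fold changes of 0.25 for Sem1 to 0.65 for Ptprz1.

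Dgkb, the other type I kinase called higher, encodes the beta isoform, which in rodents is abundant in striatal neurons. It had 14.7, 14.3 and 15.6 CPM in OP hearts, against 9.35, 5.75 and 8.85 CPM in OR hearts. The OP hearts lay close together and above all OR hearts, among which replicate 2 was lowest. The mean was 14.9 ± 0.666 CPM in OP hearts and 7.98 ± 1.95 CPM in OR hearts (SD, n = 3 each). The log2 fold change was 0.96 (SE 0.19, 95% interval 0.53 to 1.39, adjusted p = 0.0382 by limma). The call held without OP replicate 2 (adjusted p = 0.0373 by limma) and was lost without any other single library, at an adjusted p of 0.0875 and 0.0802 without OP replicates 1 and 3, and 0.0897, 0.0694 and 0.108 without OR replicates 1, 2 and 3. The gene most like Dgkb was Nek3, a NIMA-related kinase, at r = 0.996. Nek3 was also called higher in OP hearts (log2 fold change 1.05, adjusted p = 0.0362 by limma), and it lost the call without any single library other than OP replicate 2, at 0.0773 to 0.113.

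Dgka, the alpha isoform that dampens T cell receptor signals, ran the other way within type I. It had 21.2, 15.1 and 22.1 CPM in OP hearts, against 28.9, 25.8 and 25.6 CPM in OR hearts. Each OP heart was below each OR heart, and OP replicate 2 was the lowest. The difference was not called (log2 fold change -0.43, SE 0.14, 95% interval -0.75 to -0.11, adjusted p = 0.133 by limma). Without OP replicate 2 the log2 fold change was -0.28. The T and NK cell list had no called member and summed to 11.8, 10.2 and 13.4 CPM in OP hearts and 18.0, 15.2 and 13.4 CPM in OR hearts. The gene most like Dgka was Dusp1, a phosphatase of MAP kinases, at r = 0.996, and it was not called. Dgka overlaps Pmel, a melanosome gene, in the GRCr8 annotation, and Pmel had 1.15, 1.0 and 0.55 CPM in OP hearts and 1.6, 0.85 and 1.15 CPM in OR hearts and was not called. The summed reads of the 3 type I genes overlapped between the groups, at 40.2, 33.3 and 40.3 CPM in OP hearts and 38.8, 32.3 and 35.8 CPM in OR hearts. There were 1.44, 1.05 and 1.42 Dgka reads per Dgkb read in OP hearts, against 3.10, 4.50 and 2.90 in OR hearts. This separation follows from the levels of Dgka and Dgkb, which had no overlap and opposite directions, so it is no further evidence.

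The type IV gene Dgkz encodes the zeta isoform, whose overexpression in mouse cardiomyocytes limits hypertrophy driven by Gq-coupled receptors. It had 130, 137 and 144 CPM in OP hearts, against 208, 191 and 195 CPM in OR hearts. The groups were well apart, with SDs of 7.08 CPM in OP hearts and 8.89 CPM in OR hearts (n = 3 each). The 1515 to 1849 reads per OP library and 2239 to 2266 reads per OR library would give a counting error of 2.48% and 2.11%, and the spread between rats was 5.16% and 4.49% in OP and OR hearts. The log2 fold change was -0.48 (SE 0.07, 95% interval -0.65 to -0.31, adjusted p = 0.0171 by limma). Of all genes tested, 7.93% had a log2 fold change as low or lower, and by p it stood at rank 132. Without OP replicate 2 the adjusted p was 0.00771, and without OP replicate 3 it was 0.0429. It was above the threshold without OP replicate 1 (0.0561) and without OR replicate 1 (0.0961), 2 (0.0701) or 3 (0.101).

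The other type IV gene, Dgki, encodes the iota isoform known from brain. Dgki had 0.8, 1.0 and 0.95 CPM in OP hearts, against 0.75, 0.3 and 0.9 CPM in OR hearts, from 9, 11 and 12 reads and from 8, 3 and 10 reads. The groups overlapped, and the gene did not reach the filter. With no filter the log2 fold change was 0.50 (95% interval -0.29 to 1.30, adjusted p = 0.51 by limma), an interval that covers both a lower and a higher level in OP hearts.

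The type II gene Dgkd encodes the delta isoform, and mice with a reduced dose of it have impaired insulin sensitivity. It had 57.1, 53.9 and 61.0 CPM in OP hearts, against 80.5, 73.7 and 80.1 CPM in OR hearts. No OP heart reached the OR range. The log2 fold change was -0.40 (SE 0.08, 95% interval -0.58 to -0.22, adjusted p = 0.0385 by limma). The call held without OP replicate 2 (adjusted p = 0.0327 by limma) and was lost without OP replicate 1 (0.0955) or 3 (0.0695) and without OR replicate 1 (0.137), 2 (0.0966) or 3 (0.184). Across the 6 libraries Dgkd and Dgkz ran together (r = 0.97), as a description over libraries that share the group difference.

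Dgkh, the eta isoform of type II, which promotes RAF signalling in cultured human cells, had 3.9, 2.0 and 3.55 CPM in OP hearts and 2.9, 2.7 and 3.0 CPM in OR hearts. The OP hearts lay on both sides of the OR hearts. The log2 fold change was 0.12 (95% interval -0.45 to 0.69, adjusted p = 0.808 by limma), which leaves room for a change of the size seen in Dgkd. The log2 fold change was 0.38 without OP replicate 2 and -0.04 without OP replicate 1, so its sign rested on 1 library. The gene most like Dgkh was Cyb5b (r = 0.999), an outer mitochondrial membrane protein. It was also lowest in OP replicate 2, with 254, 146 and 237 CPM in OP hearts and 197, 190 and 207 CPM in OR hearts, and was not called.

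Dgke, the type III enzyme, prefers diacylglycerol with an arachidonoyl chain and so feeds the phosphatidylinositol cycle. It had 24.6, 20.4 and 24.8 CPM in OP hearts, against 27.4, 28.9 and 29.9 CPM in OR hearts. Every OP heart was below every OR heart, with OP replicate 2 the lowest. The difference was not called (log2 fold change -0.26, 95% interval -0.49 to -0.03, adjusted p = 0.183 by limma).

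Dgkq, the type V enzyme, carries an additional cysteine-rich domain. It had 16.6, 15.9 and 15.6 CPM in OP hearts, against 23.1, 20.3 and 19.1 CPM in OR hearts. The OP hearts were within a narrow range below the OR hearts. The difference was not called (log2 fold change -0.32, 95% interval -0.57 to -0.07, adjusted p = 0.139 by limma). Dgkq overlaps Idua, the lysosomal alpha-L-iduronidase gene, in the GRCr8 annotation. Idua had 29.8, 32.4 and 33.0 CPM in OP hearts, against 59.8, 51.0 and 53.5 CPM in OR hearts, and was called lower (log2 fold change -0.74, adjusted p = 0.00953 by limma). Its adjusted p was 0.0651 without OR replicate 1 and 0.0615 without OR replicate 3. The rule for reads in overlapping genes, or on opposite strands, was not stated where the counting was described. Reads of Dgkq and Idua therefore cannot be told apart where they overlap. Idua was also the gene most like Dgkz (r = 0.998), which lies on another chromosome. The gene most like Dgkq was Cdc23 (r = 0.992), and that most like Dgkd was the unnamed AABR07006097.1 (r = 0.999). Neither was called.

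**Figure D3:**
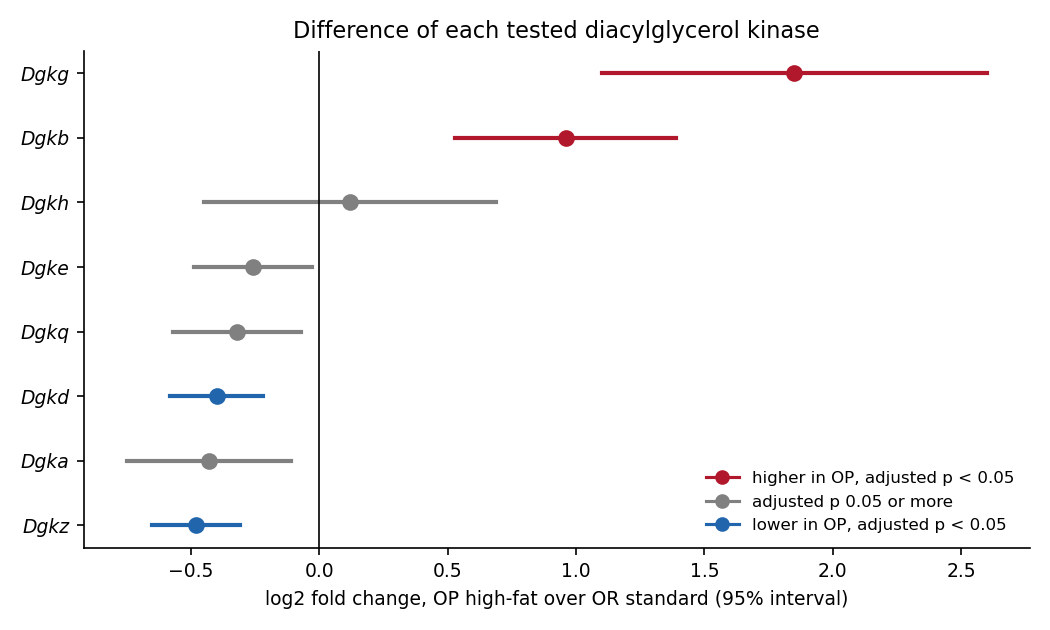
Log2 fold change of OP high-fat over OR standard hearts for the 8 kinases tested, as points with 95% intervals from limma (n = 3 rats each). Red marks genes called higher, blue genes called lower and grey genes not called. Dgkg at 1.85 and Dgkb at 0.96 lie to the right of 0, Dgkz at -0.48 and Dgkd at -0.40 to the left, and only the interval of Dgkh among the 8 includes 0.

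Across the family, the groups did not overlap for 7 of the 8 kinases tested. OP hearts were above OR hearts for 2 kinases (10.4% of all genes tested) and below them for 5 (17.7% of all genes tested). The unadjusted p was under 0.05 for the same 7, as it was for 22.3% of all genes tested. The direction of the 4 called kinases stayed as it was in every alternative in which they were tested. As their groups did not overlap, leaving out 1 library could hardly have reversed it. As each count of calls rests on 3 rats a group, it changed with the libraries used. With any library other than OP replicate 2 left out, 0 or 1 kinases were called higher and 0 or 1 lower, and without OP replicate 2 the counts remained 2 and 2. Calls over all genes moved as well, to 56, 81 and 72 without OR replicates 1, 2 and 3, to 176 and 256 without OP replicates 1 and 3, and to 775 without OP replicate 2, against 453 with all libraries. Without rescaling between libraries 33.1% of all calls were higher in OP hearts, against 43.5% with it, and the calls among the kinases were the same.

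**Figure D4:**
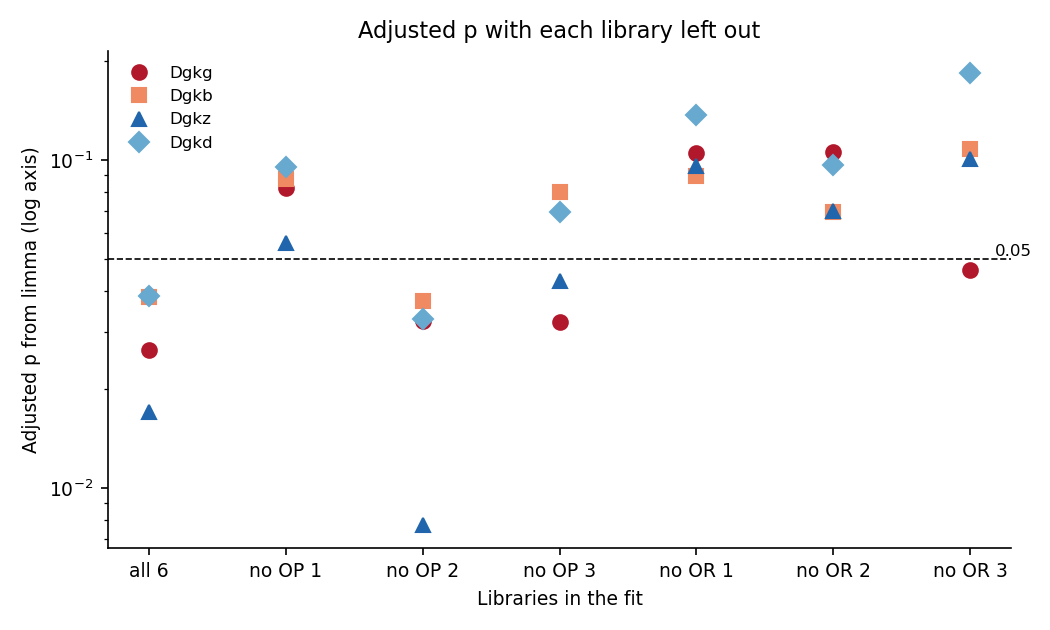
Adjusted p from limma (log axis) of the 4 called kinases with all 6 libraries and with each library left out in turn; the dashed line is at 0.05. All 4 are under the line with all libraries and without OP replicate 2, where Dgkz reaches 0.00771, and none is under it when replicate 1 of either group, or OR replicate 2, is left out.

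The family's reads were also described as a whole. The 9 kinases together had 273, 264 and 290 CPM in OP hearts, against 381, 349 and 364 CPM in OR hearts. Dgkz took 47.6%, 52.0% and 49.7% of these reads in OP hearts and 54.5%, 54.7% and 53.7% in OR hearts. Dgkb took 5.37%, 5.42% and 5.37% in OP hearts and 2.44%, 1.64% and 2.42% in OR hearts, and Dgkg took 1.60%, 1.51% and 0.913% in OP hearts and 0.145%, 0.217% and 0.384% in OR hearts. In each case the groups did not overlap. There were 8.86, 9.59 and 9.24 Dgkz reads per Dgkb read in OP hearts, against 22.3, 33.3 and 22.2 in OR hearts. The separation in this ratio, and in the shares of Dgkb and Dgkg, follows from the levels given above, so it is no further evidence. Dgkd took 20.4% to 21.0% in OP hearts and 21.1% to 22.0% in OR hearts. These are shares of reads from transcripts of different length, so they give no order of levels among the kinases.

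Apart from the overlapping genes Idua and Pmel described above, the protein-coding neighbours of the kinases in the GRCr8 order that were tested were not called. Beside Dgkg, Etv5 had a log2 fold change of -0.15 (adjusted p = 0.485 by limma) and Crygs had 2 reads or fewer in each library. Beside Dgkb, Etv1 had a log2 fold change of -0.01. Beside Dgkz, Mdk had -0.29 and Creb3l1 -0.11, and beside Dgkd, Usp40 had -0.31 (adjusted p = 0.105 by limma) while Sag was at or near 0. Among the others, the smallest adjusted p values were 0.0671 for Creb3l2 (log2 fold change -0.48) beside Dgki and 0.0772 for Slc26a1 (log2 fold change -0.69) beside Dgkq. Neighbours named Rps25l2 and C10h17orf67 had no row of that name.

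The surrounding diacylglycerol pathway was followed in 8 lists of 82 genes, of which 75 were tested. In OP hearts 1 was higher and 2 were lower, so 4.0% were called, near the 3.37% of all genes, and the median log2 fold change was -0.05. The called genes were Avpr1a, Sgms2 and Cds1.

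Upstream of the kinases, the Gq list (G proteins and their receptors) had 9 tested members, of which 1 was called. Avpr1a, the vasopressin receptor that couples to Gq, had 2.95, 4.2 and 3.3 CPM in OP hearts, against 1.3, 1.35 and 1.0 CPM in OR hearts. The groups did not overlap, and the log2 fold change was 1.42 (SE 0.23, adjusted p = 0.0203 by limma). The call was lost without OP replicate 3 (0.0502) and without OR replicate 1 (0.0864), 2 (0.0774) or 3 (0.0985). The study had named Avpr1a from these same libraries too. The angiotensin receptor gene Agtr1a had a log2 fold change of 0.77 (adjusted p = 0.0789 by limma) and the adrenergic receptor gene Adra1a one of -0.66 (adjusted p = 0.0659 by limma), and neither was called. None of the 10 phospholipases C tested was called, with a median log2 fold change of -0.22. Their smallest adjusted p values were those of Plcg1 (log2 fold change -0.28, adjusted p = 0.0683 by limma) and Plcd1 (-0.31, adjusted p = 0.0861 by limma).

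Among the enzymes on the product side, Cds1 makes CDP-diacylglycerol from phosphatidic acid, the step after the kinases towards phosphatidylinositol. It had 2.7, 3.8 and 4.6 CPM in OP hearts, against 10.4, 11.6 and 11.1 CPM in OR hearts. The groups were far apart, and the log2 fold change was -1.51 (SE 0.20, adjusted p = 0.0103 by limma). The call was lost without OR replicate 1 (0.0651), 2 (0.0656) or 3 (0.0646). No other of the 10 genes of phosphoinositide resynthesis was called. The phosphatidylinositol 4-kinase gene Pi4ka had a log2 fold change of -0.35 (adjusted p = 0.0504 by limma) and Cdipt, which joins inositol to CDP-diacylglycerol, one of 0.39 (adjusted p = 0.0545 by limma). Of the 8 other makers of phosphatidic acid, the phospholipases D and acyltransferases among them, none was called. Agk, the mitochondrial acylglycerol kinase, had a log2 fold change of 0.31 (adjusted p = 0.221 by limma) and Pld2 one of -0.29 (adjusted p = 0.24 by limma).

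Enzymes that make or use diacylglycerol by other routes included Sgms2, a sphingomyelin synthase that releases diacylglycerol. Sgms2 had 1.05, 1.9 and 0.75 CPM in OP hearts, against 8.15, 9.05 and 5.6 CPM in OR hearts. This was the lowest fold change of the 8 lists, at -2.45 on the log2 scale (SE 0.33, adjusted p = 0.011 by limma), with no overlap. The call was lost without OR replicate 1 (0.0714) or 2 (0.0694). The other 7 tested phosphatidic acid phosphatases and sphingomyelin synthases were not called, and of these Plpp1 had a log2 fold change of 0.60 (adjusted p = 0.0842 by limma) and Lpin2 one of 0.30 (adjusted p = 0.112 by limma). None of the 10 genes in a further list, mostly of enzymes that use diacylglycerol, was called. The lipase gene Lipe had a log2 fold change of 0.45 (adjusted p = 0.0611 by limma) and Mgll, which splits monoacylglycerol, one of 0.53 (adjusted p = 0.10 by limma).

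Of the effectors that bind diacylglycerol, none was called among 10 protein kinases C and D tested and 10 others tested. The medians of the log2 fold change were -0.13 and -0.31 for these lists. Prkcb, a calcium-dependent protein kinase C, had 0.7 to 1.35 CPM in OP hearts and 1.75 to 1.85 CPM in OR hearts, with a log2 fold change of -0.73 (adjusted p = 0.159 by limma). The Ras activator gene Rasgrp4 had -0.63 (adjusted p = 0.121 by limma) and the vesicle priming gene Unc13b -0.34 (adjusted p = 0.149 by limma). Unc13c was at 0 reads in every library.

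**Figure D5:**
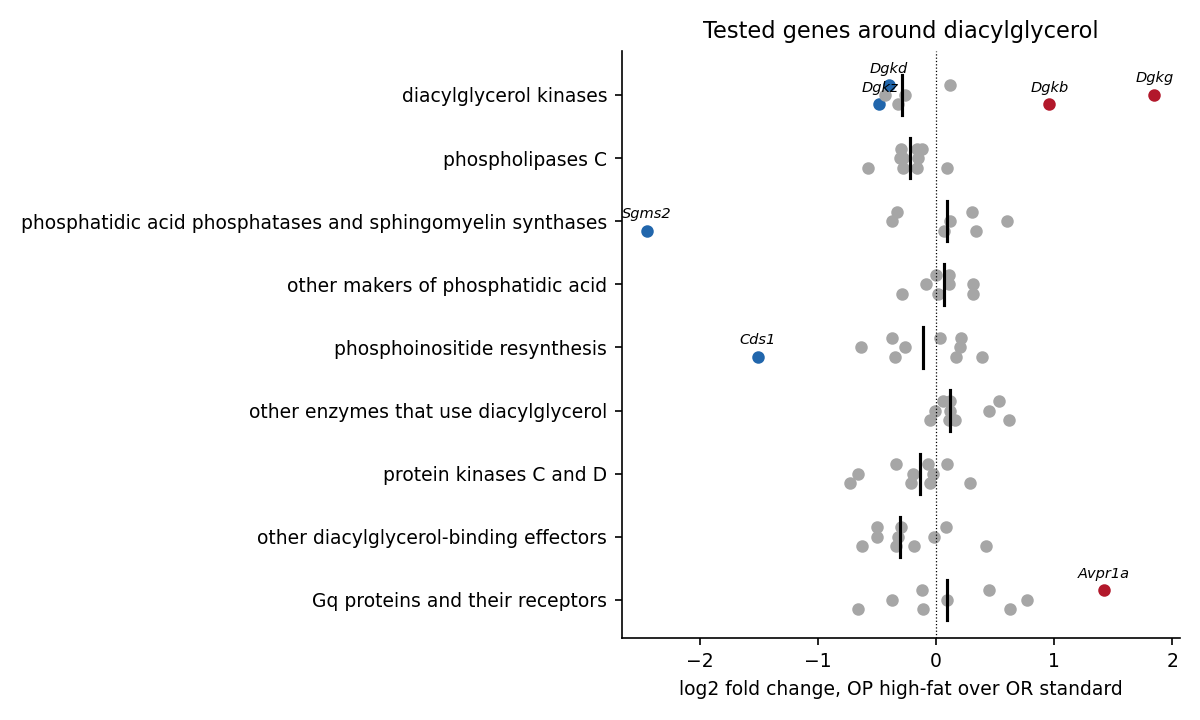
Log2 fold change of OP high-fat over OR standard hearts for the tested diacylglycerol kinases and the 8 lists of genes around diacylglycerol. Each point is a gene, red where called higher, blue where called lower and grey where not called, and the vertical bar is the list's median. The kinases hold 4 called genes, and the other lists hold 3, which are Sgms2 at -2.45, Cds1 at -1.51 and Avpr1a at 1.42.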

How the data were processed

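RNA from myocardial tissue of the 6 rats was sequenced as TruSeq libraries. Per the submitters' processing notes, the authors used Trimmomatic, then STAR on Rnor 6.0, then HTSeq for the reads of each gene. The deposited values are a score per gene: the authors scaled reads to 20000000 per library and rounded up, so they are not raw counts. The reads behind them were recovered as the library total for which 99.75% to 99.88% of the values above 0 came out whole exactly. The number of columns of no sample was 0.

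After TMM scaling (30% of ratios and 5% of levels trimmed) and addition of 4, equal to 0.2 CPM, the log2 scale was used in limma 3.58.1 (R 4.3.3, variance trend on, group as the sole term). This replaced a count model, which needs counts. The added 4 understates fold changes of low genes. The Benjamini-Hochberg adjustment ran over the 13445 genes that reached 1 CPM in 3 or more libraries. Tables were made with Python 3.11.15 and pandas 2.3.3, and the steps were tested on simulated data. Where a symbol stood on more than 1 row, the row with the most reads was used. An exact permutation test of 3 rats against 3 cannot go below p = 0.1, so single genes were tested by limma alone. Alternatives were voom on recovered reads, median-of-ratios scaling or none, a pseudocount of 1 or 20, no filter or one of 10 reads in all libraries, a block on replicate number, robust variances, and fits that left out each library in turn.

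The members and the gene lists were chosen with earlier results of these data known. Genes named are the 9 kinases and Dgkk, called list members and up to 2 more per list with the smallest p, the nearest protein-coding neighbours, the 5 genes most correlated with Dgkg and the 1 most correlated with each other tested kinase, and markers of lists with a called member. Overlapping genes of the kinases were added after their values were seen. Promoters and gene order come from RefSeq in the GRCr8 build, not the build of the authors. Protein sequences and transcript lengths were not used here, and some genes that these rules name are not reported here.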

Additional observations from a re-analysis of the deposited data

How the results depend on the processing

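The 4 called kinases kept their direction and their call under median-of-ratios scaling, no rescaling, voom, no filter, other pseudocounts and robust variances. Their log2 fold changes stayed within 0.89 to 0.99 for Dgkb, -0.53 to -0.48 for Dgkz and -0.45 to -0.39 for Dgkd, and within 1.31 (pseudocount 20) to 2.07 (voom) for Dgkg. With at least 10 reads in every library, 1 kinase was called higher, since Dgkg was no longer tested, and 1 pathway gene lower. With 1 library left out in turn, 0 to 2 kinases were called higher and 0 to 2 lower, and 0 to 5 pathway genes higher and 0 to 3 lower. Such fits hold fewer samples. Over all genes, the calls then numbered 56 to 775, against 453.

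The replicate numbers are shared between the groups by label alone. Deviations of same-numbered libraries correlated at 0.059, 0.075 and 0.127, and those of differently numbered ones across the groups at -0.17 to 0.079. The highest value was same-numbered, but all were low, so the numbers were not taken to pair the rats. With the replicate block, 0 kinases were called higher and 1 lower (Dgkz, adjusted p = 0.0487 by limma), with adjusted p values of 0.0649 for Dgkg, 0.0511 for Dgkb and 0.0674 for Dgkd. The calls over all genes were then 281. The log2 fold changes were the same with the block. Depth limits Dgki and Dgkg most. A floor of 3 reads stood for 0.234 to 0.277 CPM.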
